A study of Homo sapiens with 12 samples.

Results

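The miR-17-92 cluster is a group of microRNAs (miRNAs) cut from a single primary transcript of the host gene MIR17HG. Its 6 mature strands were taken as the assays of the TaqMan miRNA cards named hsa-miR-17, hsa-miR-18a, hsa-miR-19a, hsa-miR-19b, hsa-miR-20a or hsa-miR-92a, without the mark of a minor strand, and are written here without the species prefix. They made up 6 of the 501 assays in the deposited table, and all 6 lay on card A and were measured in all 12 samples. The samples formed 4 groups of 3 biological replicates from a pair of human embryonal carcinoma lines: NTera-2 siSOX2, NTera-2 NC, 2102Ep siSOX2 and 2102Ep NC. siSOX2 is an siRNA against SOX2, a transcription factor of the pluripotency network, and NC is a non-targeting siRNA. All cells were transfected for 6 h, with Lipofectamine RNAiMAX in NTera-2 and Lipofectamine 2000 in 2102Ep cells, and harvested after a further 72 h. The authors used a higher siRNA concentration in NTera-2 than in 2102Ep cells. Line, reagent and siRNA concentration therefore cannot be told apart. NTera-2 cells stood between passages 40 and 50 and 2102Ep cells between passages 35 and 50, and each line is a single established tumour line. SOX2 mRNA and protein were not analysed here.

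In animal cells each hairpin of such a transcript is trimmed by Drosha and Dicer, and one strand is loaded into an Argonaute protein, where the bases next to its 5′ end, the seed, pair with target mRNAs. MYC and E2F factors are known activators of MIR17HG, and the cluster is amplified or highly expressed in several tumours. miR-17 and miR-20a are known repressors of CDKN1A and E2F1, and the cluster as a whole is abundant in pluripotent cells.

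The 6 mature strands matched RefSeq on build GRCh38.p14, where the hairpins lie on the plus strand of chromosome 13 at chr13:91350605-91351391, inside MIR17HG, in the order MIR17, MIR18A, MIR19A, MIR20A, MIR19B1 and MIR92A1. The sequences are shown because the seeds, in capitals (bases 2 to 8 counted from the 5′ end), sort the strands into 4 families and set which other assays share their targets.
miR-17: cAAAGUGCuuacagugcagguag
miR-20a: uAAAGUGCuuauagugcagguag
miR-18a: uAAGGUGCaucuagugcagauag
miR-19a: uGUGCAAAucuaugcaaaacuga
miR-19b: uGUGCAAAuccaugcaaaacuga
miR-92a: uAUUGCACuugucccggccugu

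miR-17 and miR-20a had the same seed and differed by C1U and C12U (the base of miR-17, the position from the 5′ end, the base of miR-20a). miR-18a differed from miR-17 inside the seed by A4G. miR-19a and miR-19b differed by U11C alone. The mature miR-19b and miR-92a sequences are also encoded by MIR19B2 and MIR92A2 on the minus strand of chromosome X, in the paralogous miR-106a-363 cluster, so these assays cannot separate the copies. Both arms of the MIR17 hairpin (chr13:91350605-91350688, plus strand) and of the MIR18A hairpin (chr13:91350751-91350821, plus strand) had an assay, and both are shown with the strand of the cluster assay in capitals and the rest in lower case, the minor strand lying at bases 51 to 72 of MIR17 and 47 to 69 of MIR18A.
MIR17: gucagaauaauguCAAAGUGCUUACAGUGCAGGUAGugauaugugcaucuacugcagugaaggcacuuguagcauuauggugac
MIR18A: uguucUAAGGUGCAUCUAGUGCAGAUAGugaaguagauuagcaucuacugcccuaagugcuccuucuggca

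A Ct is the PCR cycle at which the signal crosses a threshold, so a lower Ct means more RNA, and a step of 1 cycle corresponds to roughly 1 log2 unit. Between 421 and 451 assays were measured per sample, replicates of a group correlated in dCt by 0.940 to 0.989 across assays, and 0 pairs were identical. The 7 embryonal carcinoma markers fixed for these lines, miR-302a, miR-302b, miR-302c, miR-367, miR-371-3p, miR-372 and miR-373, were measured in all 4 groups, with median Ct of 17.8 in NTera-2 siSOX2, 17.5 in NTera-2 NC, 18.1 in 2102Ep siSOX2 and 17.96 in 2102Ep NC. In NTera-2 cells miR-371-3p and miR-372 were weaker, miR-371-3p with Ct of 26.1 in siSOX2 and 25.2 in NC cells and miR-372 with 24.3 in siSOX2 and 22.9 in NC cells. Both were lower than in 2102Ep cells over the global mean (log2 differences of -5.92 for miR-371-3p and -6.13 for miR-372 in NC cells). After knock-down all 7 markers had a lower mean in NTera-2 siSOX2 cells, as did 71.4% of all assays. Their median log2 difference was -0.55, against -0.27 over all assays. Of the 7, 1 passed the threshold (miR-372), against 5.54% of all assays. In 2102Ep siSOX2 cells 5 of 7 had a lower mean, as did 50.2% of all assays. Their median there was -0.17, against -0.0025 over all assays, and 0 of 7 passed, against 14.1% of all assays. Of 6 fibroblast and muscle markers 3 were analysed here. miR-145 had mean Ct of 23.7 in NTera-2 siSOX2 against 25.2 in NTera-2 NC cells, higher by 1.49 on the log2 scale (limma adjusted p = 0.012), and 22.7 in 2102Ep siSOX2 (in 2 of 3 samples) against 23.1 in 2102Ep NC cells, which did not pass. miR-143 was measured only in 2102Ep cells, at 22.8 in siSOX2 (in 2 of 3 samples) against 26.1 in NC cells (limma adjusted p = 0.082), and miR-133a lay between 24.9 and 26.4. Of 5 blood markers 3 were analysed, miR-142-3p, miR-223 and miR-150, at group mean Ct of 22.9 to 29.9, and 0 of those tested passed after knock-down. The part of such cells in the results was not tested.

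All 6 strands were readily detected, and the order of their mean Ct was the same in the 4 groups. miR-19b had the lowest mean raw Ct, at 14.8 in NTera-2 siSOX2, 14.4 in NTera-2 NC, 16.7 in 2102Ep siSOX2 and 16.7 in 2102Ep NC. This was the third lowest Ct of all card A miRNAs measured in every sample of the group, of 252 to 264 such assays. miR-17 followed, at 15.6 in NTera-2 siSOX2, 15.4 in NTera-2 NC, 17.9 in 2102Ep siSOX2 and 17.6 in 2102Ep NC. miR-20a was next, at 15.9 in NTera-2 siSOX2, 15.8 in NTera-2 NC, 18.7 in 2102Ep siSOX2 and 18.5 in 2102Ep NC. miR-19a was still among the 29 lowest Ct of each group, at 18.5 in NTera-2 siSOX2, 17.9 in NTera-2 NC, 20.7 in 2102Ep siSOX2 and 20.1 in 2102Ep NC. miR-92a and miR-18a were the weakest strands and ranked from 27th to 97th. miR-92a had 19.9 in NTera-2 siSOX2, 19.9 in NTera-2 NC, 22.9 in 2102Ep siSOX2 and 22.8 in 2102Ep NC, and miR-18a had 20.6 in NTera-2 siSOX2, 19.99 in NTera-2 NC, 23.4 in 2102Ep siSOX2 and 23.4 in 2102Ep NC. Assays of different miRNAs were not calibrated against each other, so this order is one of Ct and not of copies per cell. The raw Ct of miR-17 and miR-20a overlapped across replicates in both groups of NTera-2 cells, and that of miR-92a and miR-18a in NTera-2 NC and 2102Ep siSOX2 cells. Within each NTera-2 siSOX2 sample miR-17 had the lower Ct, at 15.54, 15.90 and 15.45 against 15.83, 15.91 and 15.94 for miR-20a. In each of the other cases the order of the pair turned in a sample.

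The first comparison asked whether the cluster responded to SOX2 knock-down in NTera-2 cells. Levels are given as minus dCt, that is, log2 relative to the averaged Ct of miR-16 and U6 (a small nuclear RNA), which the deposited values use as the card A reference. Of the 6 strands 0 passed the adjusted threshold of 0.05, against 25 of all 451 assays tested (5.54% of assays in limma with Benjamini-Hochberg adjustment), and against 7 with the replicate number as a block. At an unadjusted p under 0.05 there were 3 of 6 strands, miR-18a, miR-19a and miR-19b, against 21.7% of all assays, and an unequal-variance test of each assay alone called 0 strands after adjustment, and 3 of all 451 assays (0.665%). In 5 of 6 strands the siSOX2 mean was the lower, as in 71.4% of all assays. The median log2 difference was -0.33 over the strands, -0.27 over all assays tested and -0.20 over those of card A. These medians moved with the reference. With miR-16, the median of card A assays was -0.02 and that of the strands -0.14. With the global mean, the median of all assays was 0.06 and that of the strands -0.10.

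miR-19a had log2 levels of -3.68, -4.03 and -3.81 in NTera-2 siSOX2 cells, against -2.98, -3.54 and -3.18 in NTera-2 NC cells. The groups did not overlap, with the siSOX2 samples lower, as for 22.8% of all assays. The log2 difference was -0.61 ± 0.23 (SE, n = 3 each), with a 95% interval of -1.12 to -0.10 and a limma adjusted p of 0.148. miR-18a, which shares no seed with it, gave -5.90, -5.86 and -5.95 in siSOX2 and -5.28, -5.10 and -5.51 in NC samples. The siSOX2 replicates of miR-18a were tight (SD 0.045) and all lay below the NC replicates, with a log2 difference of -0.60 ± 0.20 (SE, n = 3 each) and a limma adjusted p of 0.117. miR-19b, the strongest strand, had -0.26, -0.05 and -0.13 in siSOX2 samples, against 0.44, 0.30 and 0.14 in NC samples. It too was apart in all samples, with a log2 difference of -0.44 ± 0.17 (SE, n = 3 each) and a limma adjusted p of 0.172.

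With U6 alone as the reference, these same 3 strands were called lower, with log2 differences of -0.79 in miR-19a, -0.79 in miR-18a and -0.62 in miR-19b and limma adjusted p of 0.030, 0.044 and 0.042. Under that reference 39 of 256 card A assays were called lower (15.2%). With the mean over all complete assays of a card as the reference, they were -0.38, -0.38 and -0.21 and not called. The other 3 strands overlapped between the groups. miR-17 had log2 levels of -1.02, -0.99 and -0.82 in siSOX2 and -0.87, -0.50 and -0.82 in NC samples, a difference of -0.22 whose 95% interval ran from -0.62 to 0.19. miR-20a, its seed mate in the cluster, gave -1.31, -0.999 and -1.32 in siSOX2 and -0.85, -1.20 and -1.22 in NC samples, a difference of -0.12 with an interval from -0.56 to 0.32. miR-92a had -5.41, -5.05 and -5.20 in siSOX2 and -5.50, -4.96 and -5.29 in NC samples, a difference of 0.03 with an interval from -0.45 to 0.51. The sign of miR-17, miR-20a and miR-92a changed with the reference, for miR-17 only with the global mean (0.010).

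**Figure D1:**
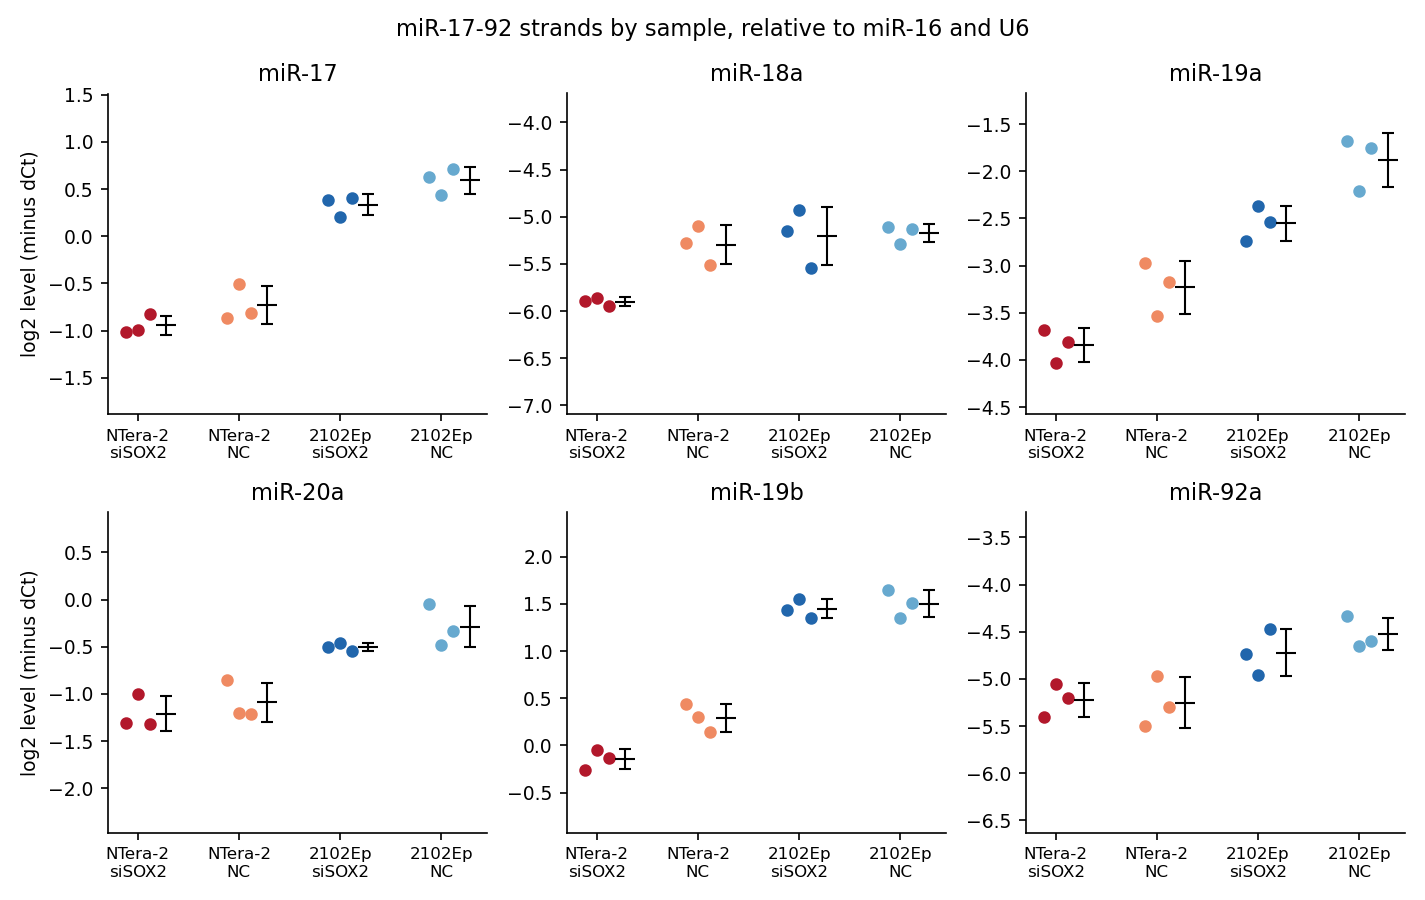
Log2 level (minus dCt, relative to the mean of miR-16 and U6) of the 6 strands in each sample of the 4 groups, with 1 panel a strand and the same span on every axis. Points are the 3 replicates, and the bar beside them is the mean ± SD. In NTera-2 cells, the siSOX2 points of miR-18a, miR-19a and miR-19b lie below all NC points, and in 2102Ep cells those of miR-17 and miR-19a do.

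In 2102Ep cells the knock-down also left 0 of 6 strands past the adjusted threshold, against 61 of 432 assays tested (14.1% of assays, limma). At an unadjusted p under 0.05 there was 1 strand, miR-19a, against 25% of all assays, and the unequal-variance test of each assay alone called 0 strands and 8 of all 432 assays (1.85%) after adjustment. All 6 strands had a lower mean in siSOX2 cells, where 50.2% of all assays did. This sign held for miR-19a under all 21 alternatives, while relative to RNU44 and RNU48 the other 5 strands were higher in siSOX2 cells. The median log2 difference was -0.21 over the strands and -0.0025 over all assays.

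miR-19a again had the largest difference of the strands. Its log2 levels were -2.74, -2.37 and -2.54 in 2102Ep siSOX2 cells, against -1.68, -2.21 and -1.75 in 2102Ep NC cells. The groups did not overlap, with the siSOX2 samples lower, as for 18.1% of all assays. The log2 difference was -0.67 ± 0.23 (SE, n = 3 each), with a 95% interval of -1.18 to -0.16 and a limma adjusted p of 0.083. The adjusted p ranged from 0.053 to 0.464 over the alternatives. miR-17 had 0.39, 0.21 and 0.41 in siSOX2 samples and 0.62, 0.43 and 0.72 in NC samples. Its groups were apart as well, but the difference of -0.26 ± 0.18 (SE, n = 3 each) had a limma adjusted p of 0.444.

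The remaining strands of 2102Ep cells overlapped between siSOX2 and NC. miR-20a gave -0.51, -0.46 and -0.55 in siSOX2 and -0.04, -0.48 and -0.34 in NC samples, where NC replicate 1 was the highest. miR-92a gave -4.74, -4.96 and -4.47 in siSOX2 and -4.33, -4.65 and -4.60 in NC samples. miR-18a gave -5.15, -4.93 and -5.54 in siSOX2 and -5.11, -5.29 and -5.13 in NC samples, and miR-19b 1.44, 1.55 and 1.35 in siSOX2 and 1.65, 1.35 and 1.51 in NC samples. Their log2 differences were -0.22, -0.20, -0.03 and -0.05 in that order of strands, with 95% intervals that reached no lower than -0.68 and no higher than 0.42. For miR-18a and miR-19b, both among the lower strands of NTera-2 siSOX2 cells, the 2102Ep means thus differed by less than the SD of the siSOX2 replicates (0.31 and 0.099).

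The effects in the 2 lines were set against each other in the same fit, as the siSOX2 minus NC difference in NTera-2 minus that in 2102Ep cells. Of the 6 strands 0 passed, against 17 of 385 assays (4.42%, limma; 1 with the replicate block), and 0 of 6 had an unadjusted p under 0.05 (22.1% of all assays). The largest interaction was that of miR-18a, at -0.57 ± 0.29 (SE), with a limma adjusted p of 0.286 and a 95% interval of -1.21 to 0.07. miR-19b followed at -0.38, with an interval from -0.93 to 0.16. For miR-19a, which had similar values in both lines, the interaction was 0.06, and the interval of -0.66 to 0.78 leaves room for a difference in either direction. miR-17, miR-20a and miR-92a had interactions of 0.04, 0.10 and 0.23. The median over the strands was 0.05, against -0.27 over all assays.

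**Figure D2:**
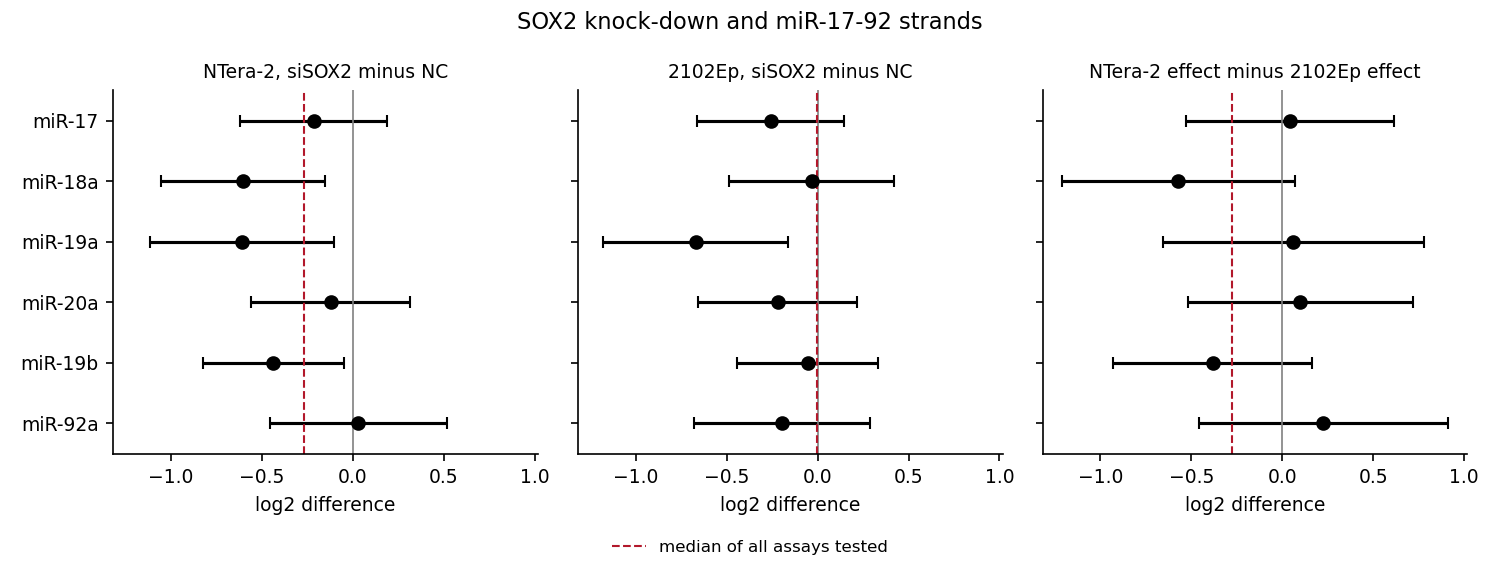
Log2 difference (minus dCt scale) of siSOX2 minus NC in NTera-2 cells (left), in 2102Ep cells (middle), and of the first minus the second (right), for the 6 strands. Points are estimates of the limma fit over 12 samples and bars their 95% intervals, and the dashed line is the median of all assays tested. The intervals of miR-18a, miR-19a and miR-19b in NTera-2 and of miR-19a in 2102Ep cells lie below 0, without adjustment for the number of assays.

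The lines themselves were compared next, as NTera-2 minus 2102Ep cells. The raw Ct of each strand was set against the mean Ct of the card A assays measured in all 6 samples concerned, 226 assays for siSOX2 and 232 for NC cells. On this scale all 6 strands were higher in NTera-2 than in 2102Ep cells, in siSOX2 and in NC cells alike, with no overlap between the lines, as for 43.1% of all assays in siSOX2 and 41.2% in NC cells. All 6 passed the threshold in siSOX2 cells, against 285 of 385 assays in either direction (74%) and 41% higher. All 6 also passed in NC cells, against 277 of 386 in either direction (71.8%) and 38.9% higher. The sign turned with the reference. With U6, all 6 strands passed as lower in NTera-2 cells in both arms, as did 95.7% of card A assays in siSOX2 and 92.3% in NC cells. With the deposited mean of miR-16 and U6, all 6 were lower and 5 passed in each arm (all but miR-92a in siSOX2 and miR-18a in NC cells), as did 92.3% of card A assays in siSOX2 and 90.6% in NC cells.

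In NC cells miR-18a, the weakest strand, had the largest difference between the lines over the global mean. Its log2 level over the mean of the card was 4.48, 4.55 and 4.07 in NTera-2 NC and 0.75, 0.92 and 0.85 in 2102Ep NC cells, a difference of 3.53 ± 0.24 (SE, n = 3 each; limma adjusted p = 7.1e-05). miR-92a was at 4.27, 4.68 and 4.29 in NTera-2 NC and 1.52, 1.55 and 1.38 in 2102Ep NC cells, a difference of 2.93. miR-20a differed by 2.85, miR-19b by 2.44, miR-17 by 2.33 and miR-19a by 2.30, with standard errors of 0.23 to 0.27 and a largest limma adjusted p of 0.00044. Relative to the global mean this was a range of 4.93-fold for miR-19a to 11.5-fold for miR-18a. With U6 the sign turned and so did the order of sizes, with -0.67 for miR-18a as the smallest and -1.90 for miR-19a as the largest.

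In siSOX2 cells miR-92a had the largest difference between the lines. Its log2 levels were 4.61, 4.75 and 4.53 in NTera-2 siSOX2 and 1.22, 1.01 and 1.68 in 2102Ep siSOX2 cells, a difference of 3.33 ± 0.25 (SE, n = 3 each, limma adjusted p = 9.2e-05). miR-18a differed by 3.13 and miR-20a by 3.12, both within the standard error of miR-92a. miR-17, miR-19a and miR-19b differed by 2.55, 2.53 and 2.23, all on the log2 scale over the global mean. With U6 miR-92a had the smallest difference, -1.26, and miR-19b the largest, -2.36. The median over the strands was 2.83 in siSOX2 cells, against 0.08 over all assays tested, and 2.65 in NC cells, against 0.17 over all assays.

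The reference RNAs were themselves unequal between the lines. U6 had mean Ct of 10.6 in NTera-2 siSOX2 and 14.9 in 2102Ep siSOX2 cells, and of 10.8 in NTera-2 NC and 14.9 in 2102Ep NC cells. miR-16 had 18.7 in NTera-2 siSOX2 and 21.5 in 2102Ep siSOX2 cells, and 18.6 in NTera-2 NC and 21.6 in 2102Ep NC cells. The mean of the 224 card A assays measured in all 12 samples was 24.5 in NTera-2 siSOX2, 24.3 in NTera-2 NC, 24.2 in 2102Ep siSOX2 and 24.2 in 2102Ep NC. With RNU44 and RNU48, small nucleolar RNAs, as the reference, all 6 strands were higher in NTera-2 NC than in 2102Ep NC cells. Of these 5 passed, by 0.80 to 2.00, as did 13% of all assays, and miR-19a did not, at 0.77. In siSOX2 cells under that reference all 6 were higher and 3 passed, as did 6.23% of all assays. With miR-16 alone, 3 strands (miR-17, miR-19a and miR-19b) were called lower in NTera-2 cells in each arm, as were 86.2% of card A assays in siSOX2 and 84.1% in NC cells.

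A reference takes the same value off every assay of a card in a sample, so by construction it moves the strands and the other assays together, and the gap between them says nothing about which reference holds. In NC cells the median of the tested assays was -3.50 with miR-16 and U6, -4.04 with U6 and -2.96 with miR-16 (card A), -1.68 with RNU44 and RNU48 (both cards) and 0.17 with the global mean (both cards). Over the global mean each strand lay above the median of all assays, by 2.15 to 3.25 in siSOX2 cells and by 2.13 to 3.36 in NC cells.

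**Figure D3:**
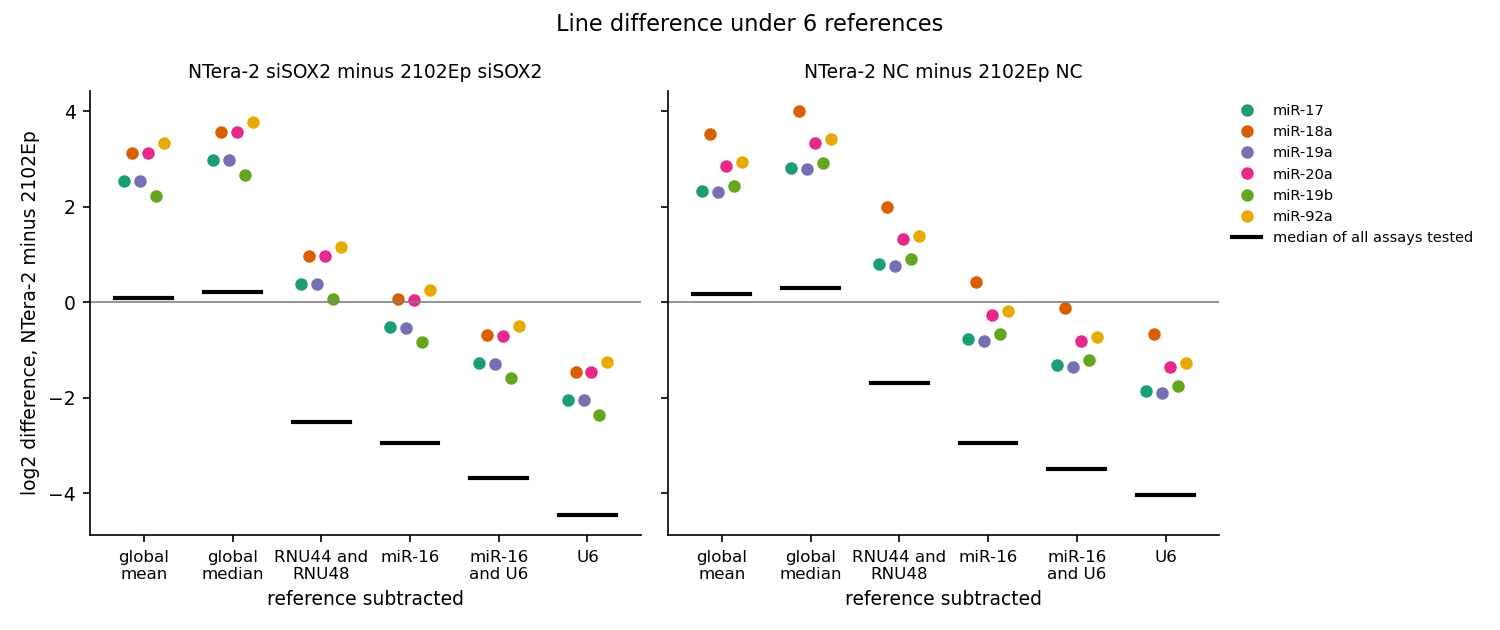
Log2 difference of NTera-2 minus 2102Ep cells for the 6 strands (points) and for the median of all assays tested (black bars) under 6 references, in siSOX2 cells (left) and NC cells (right). Points and bars rise from the global mean to the global median and then move down to U6, a shift set by the reference subtracted. The bars cover both cards for the global mean, the global median, and RNU44 and RNU48, and card A alone for the others. The sign of the points turns between the global mean and U6.

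Since the 6 strands were on the same card, their levels relative to each other need no reference RNA. Each was therefore set against the mean of the 6 in its own sample, a measure chosen after the values had been seen and given without a test. miR-19b stood 2.67, 2.78 and 2.74 above that mean in NTera-2 siSOX2 and 2.94, 2.80 and 2.79 in NTera-2 NC cells, against 3.33, 3.38 and 3.24 in 2102Ep siSOX2 and 3.13, 3.16 and 3.11 in 2102Ep NC cells. The miR-19b share was thus lower in NTera-2 than in 2102Ep cells in every sample. It was also lower in siSOX2 than in NC samples of NTera-2, where the nearest samples stood at 2.780 and 2.785. In 2102Ep cells it was higher in siSOX2 than in NC samples. On this measure a fall of any strand raises the others by construction. The mean raw Ct of miR-19b in 2102Ep cells was 16.75 in siSOX2 and 16.73 in NC, while that of miR-19a was 20.7 in siSOX2 and 20.1 in NC.

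miR-18a stood at -2.97, -3.03 and -3.08 in NTera-2 siSOX2 and -2.78, -2.60 and -2.86 in NTera-2 NC cells, against -3.26, -3.10 and -3.65 in 2102Ep siSOX2 and -3.62, -3.48 and -3.53 in 2102Ep NC cells. It was the strand whose share differed the most between the NC cells of the lines, by 0.80, and it was lower in siSOX2 than in NC samples of NTera-2 by 0.28. In 2102Ep cells its groups overlapped. miR-19a stood at -0.86, -0.54 and -0.65 in 2102Ep siSOX2 and -0.20, -0.40 and -0.15 in 2102Ep NC cells, lower by 0.43 in siSOX2 without overlap. In NTera-2 cells it was lower by 0.28 in siSOX2, with overlap. miR-17 and miR-20a overlapped between siSOX2 and NC in both lines, and so did miR-92a.

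**Figure D4:**
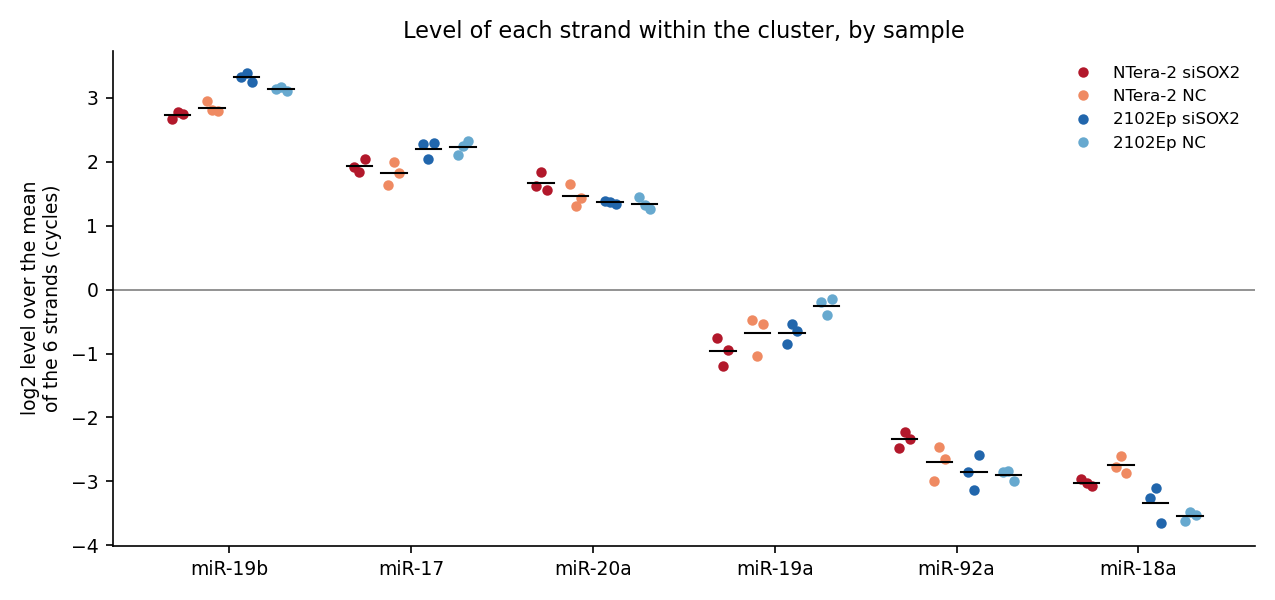
Log2 level of each strand over the mean of the 6 strands in the same sample (in cycles of raw Ct), for the 4 groups, with points for replicates and black bars for means. The means of the strands keep their order in every group. miR-19a of 2102Ep siSOX2 lies below its NC points, and miR-18a of NTera-2 siSOX2 below its NC points.

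The minor strands, cut from the other arms of the same hairpins and usually degraded, had 6 assays, all on card B and, where measured, with a higher mean raw Ct than the partner strand in every group. miR-19a* was measured in the 6 NTera-2 samples and in 0 of 6 2102Ep samples. In NTera-2 cells 0 of 6 passed after knock-down, against 5.54% of all assays. All 6 differences were below 0, as in 71.4% of all assays, and their median was -0.30, against -0.27 over all assays. In 2102Ep cells 0 of 5 tested passed, against 14.1% of all assays, with a median of -0.04, against -0.0025 over all assays. miR-17* had raw Ct of 31.8, 31.3 and 30.5 in 2102Ep siSOX2 and 32.9, 31.6 and 32.4 in 2102Ep NC cells. Its log2 difference on the dCt scale was 1.23 ± 0.39 (SE, n = 3 each; limma adjusted p = 0.072), opposite in sign to the -0.26 of miR-17. miR-18a* had a difference of -0.79 (limma adjusted p = 0.111) beside the -0.03 of miR-18a. Between the lines, all 5 tested minor strands passed as higher in NTera-2 cells over the global mean of card B, with medians of 4.57 in siSOX2 and 4.05 in NC cells. This compares with 41% of all assays called higher in siSOX2 and 38.9% in NC cells. On the deposited dCt the sign turned, and all 5 were lower in NTera-2 cells, with medians of -4.39 in siSOX2 and -4.27 in NC cells. The value that dCt subtracts on card B differed widely between the lines, however. It lay between 16.3 and 16.9 cycles in NTera-2 and between 24.3 and 25.0 cycles in 2102Ep samples, where U6 had no card B value. These medians carry that shift. miR-92a-1* had 2.38 in siSOX2 and 2.18 in NC cells over the global mean, beside 3.33 and 2.93 for miR-92a, while miR-17* had 5.12 in siSOX2 and 5.99 in NC cells, beside 2.55 and 2.33 for miR-17. The strands of a hairpin lay on different cards, each centred on its own mean.

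The paralogous clusters miR-106b-25, on chromosome 7, and miR-106a-363, on chromosome X, arose from the same ancestral cluster and had 8 assays. Of these 0 of 8 tested passed after knock-down in NTera-2 cells, against 5.54% of all assays, and 0 of 7 in 2102Ep cells, against 14.1%. The medians were -0.13 in NTera-2 cells, against -0.27 over all assays, and -0.11 in 2102Ep cells, against -0.0025. All 7 tested between the lines passed as higher in NTera-2 cells over the global mean, with medians of 2.68 in siSOX2 and 2.68 in NC cells, against 41% of all assays called higher in siSOX2 and 38.9% in NC cells. On the deposited dCt miR-106b, miR-93, miR-25 and miR-20b were lower in NTera-2 cells in both arms, and miR-106a, miR-18b and miR-363 stayed higher. For example, miR-25 had log2 differences of -1.92 in siSOX2 and -1.93 in NC cells. Of card A assays, 92.3% in siSOX2 and 90.6% in NC cells were called lower on that scale. The nearest sequences to the cluster were in these paralogs and are shown with the seed in capitals, since assays of such pairs may cross-react.
miR-106a: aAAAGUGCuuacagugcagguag
miR-20b: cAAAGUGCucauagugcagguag
miR-106b: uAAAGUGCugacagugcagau
miR-18b: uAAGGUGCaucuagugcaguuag
miR-25: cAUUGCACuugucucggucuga

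miR-106a differed from miR-17 by C1A alone and miR-18b from miR-18a by A20U alone. The difference of NTera-2 NC minus 2102Ep NC over the global mean was 3.93 for miR-106a and 2.33 for miR-17, and 5.22 for miR-18b and 3.53 for miR-18a. miR-20b, which differed from miR-20a by U1C and U10C, gave 2.28 beside the 2.85 of miR-20a.

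In all, 10 assays of other miRNAs had the seed of a cluster strand: 5 that of miR-17 and miR-20a, 1 that of miR-18a, 4 that of miR-92a and 0 that of the miR-19 strands. After knock-down in NTera-2 cells 0 of 10 passed, against 5.54% of all assays, with a median of -0.20 against -0.27 over all assays. In 2102Ep cells 1 of 10 passed, against 14.1% of all assays. It was the placental-cluster strand miR-519d, which has the seed of miR-17. Its log2 levels were -6.75, -6.32 and -6.55 in siSOX2 and -5.50, -5.12 and -5.45 in NC samples, so that all siSOX2 samples were lower, with a log2 difference of -1.18 (limma adjusted p = 0.018). The call was lost under 6 of 21 alternatives. These were leaving out NC replicate 2 (limma adjusted p = 0.063), NC replicate 3 (0.051) or siSOX2 replicate 1 (0.071), the global median (0.069) or RNU44 and RNU48 (0.177) as the reference, and the unequal-variance test (0.070). miR-519d was also the 1 seed mate of 10 that was lower in NTera-2 than in 2102Ep cells over the global mean. Its log2 differences were -3.53 in siSOX2 and -4.88 in NC cells. The other 9 passed as higher, against 41% of all assays in siSOX2 and 38.9% in NC cells. On the deposited dCt 7 of the 10 were lower in NTera-2 cells in each arm. Of card A assays, 92.3% in siSOX2 and 90.6% in NC cells were called lower on that scale.

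The miR-302 and miR-372 families, embryonic stem cell miRNAs, have the seed AAGUGCU, which holds the 6 bases AAGUGC of the miR-17 seed, moved by 1 base. miR-302b is shown as their example, with the seed in capitals.
miR-302b: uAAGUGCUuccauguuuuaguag

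Of the 6 assays of these families 0 passed after knock-down in 2102Ep cells (median -0.12), against 14.1% of all assays. In NTera-2 cells 1 of 6 passed (median -0.21), against 5.54% of all assays. This was miR-372, with log2 levels of -10.2, -9.67 and -9.12 in siSOX2 and -8.69, -7.63 and -8.41 in NC samples. All siSOX2 samples were lower, with a log2 difference of -1.40 (limma adjusted p = 0.027, and 0.068 with the replicate block). This call was lost under 10 of 21 alternatives, the block included. The limma adjusted p was 0.098 when siSOX2 replicate 1 was left out, 0.084 for NC replicate 3, 0.077 for siSOX2 replicate 2 and 0.061 for NC replicate 2. With the global mean as the reference it was 0.056, with the global median 0.071, in the 6 samples alone 0.142, and in the equal-variance test of each assay alone 0.231 and in the unequal-variance test 0.293. Between the lines, 5 of the 6 passed as higher in NTera-2 cells over the global mean. miR-372 passed as lower, with log2 differences of -6.99 in siSOX2 and -6.13 in NC cells. Of all assays 41% were called higher in siSOX2 and 38.9% in NC cells, and 74% and 71.8% in either direction. On the deposited dCt all 6 were lower in NTera-2 cells in both arms, but miR-302d lay on card B, where the value subtracted differed between the lines. Of card A assays, 92.3% in siSOX2 and 90.6% in NC cells were called lower on that scale.

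The assays whose profile over the 12 samples was most like the mean profile of the 6 strands were ranked by the root mean square difference of centred log2 levels (minus dCt) among the 224 card A assays measured in every sample. The strands themselves lay between 0.16 (miR-20a) and 0.33 (miR-18a) from their own mean. The 5 nearest other assays were miR-106b (0.18), miR-302b (0.22), miR-16 (0.23), miR-130b (0.25) and miR-20b (0.25), against a median of 1.49 over all assays. miR-16 is part of the reference of these levels, and miR-106b and miR-20b have the seed of miR-17 and miR-20a. These distances describe 12 samples of 4 groups and carry no test.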

How the data were processed

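Total RNA of 12 samples (4 groups of 3) was reverse transcribed, pre-amplified and run by the authors on TaqMan cards A and B. The authors deposited raw Ct and dCt tables, both on a log2 scale (cycles). The deposited dCt is raw Ct minus a constant for each sample and card, and on card A that constant was the average Ct of miR-16 with U6. The raw Ct column of 2102Ep siSOX2 replicate 3 was out of line by 1 measured row from row 105 of the table on. Raw Ct was taken as dCt plus the constant in all samples, which lay within 0.02 cycles of the deposited raw Ct in every other sample. In this sample 338 of 339 moved values lay within 0.02 cycles of it. Its RNU44, RNU48 and U6 values were taken, in table order, from the values left at the end of the moved column. From that row on the values of this sample thus rest on the dCt column. In dCt the replicates of 2102Ep siSOX2 correlated by 0.980 to 0.985. Another deposited table, of fold changes and p-values of the authors' own comparisons, was not used.

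A value at cycle 40 counted as not measured. Assays with at least 2 of 3 values per group were tested two-sided on minus dCt in R 4.3.3 (limma 3.58.1, lmFit followed by eBayes), with 4 group means over 12 samples, or, between lines, on raw Ct centred on the mean of each card's complete assays over 6 samples. P-values were adjusted over all assays by the Benjamini-Hochberg method. No depth applies to Ct values, and the number of samples limits the precision. Figures were drawn with matplotlib, and the fits were checked on simulated data.

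The members and lists were chosen with earlier results of these data known. The rule named the 6 strands, list members where 5 or fewer of a list passed, and the 5 nearest profiles. Alternatives were other references, filters on Ct (35 or 32, complete assays, unmeasured values at 40, card A only), tests of each assay alone, a variance trend, 6 or 12 samples, a replicate block and leaving out each sample. The fits without the block took no samples as pairs in either line, and the block was an alternative in both. Residuals of siSOX2 and NC samples with equal replicate numbers gave correlations of 0.118, 0.265 and 0.159 for NTera-2. Unequal numbers there reached at most 0.054. For 2102Ep, equal numbers gave 0.158, 0.169 and 0.064, and unequal numbers at most 0.036. Sequences are from RefSeq (GRCh38.p14), in which all 6 strands matched.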

Additional observations from a re-analysis of the deposited data

How the results depend on the processing

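Over 5 comparisons, 660 values of the 6 strands were recomputed under 21 or 26 alternatives each, and the direction turned in 69 of them. The cause of each turn was not tested, but each of the 32 between the lines came with a change of reference RNA. After knock-down in 2102Ep cells no alternative brought a strand past the threshold. The sign turned for miR-18a with the global mean (0.0031) and global median (0.041), for miR-19b with the global median (0.020), and with RNU44 and RNU48 for miR-17 (0.094), miR-18a (0.32), miR-20a (0.13), miR-19b (0.30) and miR-92a (0.16). Leaving out 1 sample gave -0.17 to 0.13 for miR-18a (above 0 without siSOX2 replicate 3) and -0.13 to 0.017 for miR-19b (above 0 without NC replicate 1). In NTera-2 cells U6 as the reference gave 3 strands past the threshold and turned miR-92a (-0.15). RNU44 and RNU48 turned miR-92a too (-0.073). miR-20a turned with miR-16 (0.061), the global mean (0.10) and the global median (0.075), and miR-17 with the global mean (0.010). Leaving out 1 sample gave -0.092 to 0.17 for miR-92a, below 0 without NC replicate 1 (-0.092) or siSOX2 replicate 2 (-0.053).

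The comparison of the effects in NTera-2 and 2102Ep cells kept 0 strands past the threshold under 26 alternatives. With U6, miR-17 (-0.17), miR-19a (-0.15) and miR-20a (-0.12) turned, and with RNU44 and RNU48 miR-17 (-0.41), miR-19a (-0.40), miR-20a (-0.36) and miR-92a (-0.23). Leaving out 1 sample gave -0.027 to 0.16 for miR-17, -0.093 to 0.22 for miR-19a and -0.023 to 0.22 for miR-20a. Of these, miR-17 turned without replicate 3 of 2102Ep NC (-0.020), replicate 2 of 2102Ep siSOX2 (-0.022), replicates 1 (-0.027) or 3 (-0.0024) of NTera-2 NC or replicate 3 of NTera-2 siSOX2 (-0.018). miR-19a turned without replicates 1 (-0.038) or 3 (-0.0037) of 2102Ep NC, replicate 1 of 2102Ep siSOX2 (-0.035), replicate 2 of NTera-2 NC (-0.093) or replicate 1 of NTera-2 siSOX2 (-0.021), and miR-20a without replicate 1 of 2102Ep NC (-0.023) or replicate 2 of NTera-2 siSOX2 (-0.0066).

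Between NTera-2 NC and 2102Ep NC cells, all 6 strands turned with the deposited dCt: miR-17 to -1.32, miR-18a to -0.12, miR-19a to -1.35, miR-20a to -0.80, miR-19b to -1.21 and miR-92a to -0.72. With U6 the values were -1.86 (miR-17), -0.67 (miR-18a), -1.90 (miR-19a), -1.35 (miR-20a), -1.76 (miR-19b) and -1.27 (miR-92a). With miR-16, 3 strands passed, and the values that turned were -0.78 (miR-17), -0.81 (miR-19a), -0.26 (miR-20a), -0.67 (miR-19b) and -0.18 (miR-92a). Between NTera-2 siSOX2 and 2102Ep siSOX2 cells, the deposited dCt gave -1.28 (miR-17), -0.69 (miR-18a), -1.29 (miR-19a), -0.70 (miR-20a), -1.60 (miR-19b) and -0.50 (miR-92a). U6 gave -2.04 (miR-17), -1.45 (miR-18a), -2.05 (miR-19a), -1.46 (miR-20a), -2.36 (miR-19b) and -1.26 (miR-92a). With miR-16, 3 strands passed, at -0.52 (miR-17), -0.53 (miR-19a) and -0.84 (miR-19b), and with RNU44 and RNU48 3 passed, all higher in NTera-2. Without any single sample, all 6 strands stayed past the threshold and higher in NTera-2 cells, from 2.12 to 3.68 in NC and 2.19 to 3.51 in siSOX2 cells.

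The replicate block left the count of strands past the threshold at 0 after knock-down in each line, at 0 for the difference of the effects and at 6 between the lines in each arm. Over all assays it gave 48 calls in 2102Ep and 7 in NTera-2 cells, against 61 and 25 without it, and 1 against 17 for the difference of the effects.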
